A study of Mus musculus with 8 samples.

Results

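Keratin-associated protein genes (Krtap genes) were described in 8 RNA sequencing libraries of embryonic skin from C57BL/6 mice. The members are every gene symbol in the deposited tables that begins with Krtap followed by a digit, which leaves out the unrelated epidermal gene Krtdap. There are 51 of them among 21882 symbols, with 52 of 27641 listed transcripts, and Krtap4-13 is the member with 2. At embryonic day 16.5 (E16.5), 2 libraries of whole skin labelled Cyp26b1-/- were set against 2 of wild-type (WT) whole skin. At E18.5, embryonic day 18.5, 1 library of dermis and 1 of epidermis labelled En1cre;Cyp26b1f/- were set against 1 dermis and 1 epidermis control library with the genotype Cyp26b1f/+. The titles of the E18.5 libraries carry 4 different numbers. Whether any of these libraries share an embryo or a litter is not given, and none were treated as pairs. Whether the controls carry En1cre is not given in the sources used here.

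Cyp26b1 encodes an enzyme that degrades retinoic acid, and En1cre recombines the floxed allele in cells with a history of Engrailed 1 expression, among them much of the trunk dermis. The f/- mutant also has 1 Cyp26b1 allele fewer than the f/+ control in every other cell, and the E18.5 comparisons cannot tell these differences apart. Levels are given in FPKM, the number of sequenced fragments divided by transcript length and library size. Each E16.5 column pools the libraries of its group, so a value per library is not given there. The depth of the libraries is unknown, and no sampling interval is given for any value. Cyp26b1 itself was listed at 58.16 FPKM in skin labelled null and 34.95 FPKM in WT skin, at 101.73 and 54.16 FPKM in labelled mutant and control dermis, and at 13.68 and 4.97 FPKM in labelled mutant and control epidermis. These values are higher in every labelled mutant. They cover the whole transcript, the deleted part is not given in the sources used here, and so they do not check the genotype labels.

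Keratin-associated proteins are small proteins of the hair shaft that surround the hair keratin filaments and cross-link them. High-sulphur and ultra-high-sulphur members are rich in cysteine, which forms disulphide bonds with the keratins, whereas high glycine-tyrosine members are rich in those amino acids. Their genes are switched on late in hair follicle differentiation, as cells leave the matrix for the cortex and cuticle of the shaft, after the first hair keratins have appeared. In mouse skin at these ages the first follicles are still growing down from the epidermis into the dermis.

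The 51 members fall into 23 subfamilies by the number in their names. They lie in 4 clusters when neighbours less than 1 Mb apart are joined (build mm9). Chromosome 11 carries 21 members between 99411446 and 99855308, and chromosome 16 carries 22 between 88610954 and 89571428. Chromosome 7 carries 5 between 149360437 and 149490408, and chromosome 10 carries 3 between 77183331 and 77299996. In the GENCODE annotation of the same build, 36 members lie on the minus strand, 12 on the plus strand and 3 have no matching symbol. Of 43 members with an annotated transcript there, 38 have a single exon. All 51 were matched to current RefSeq symbols by accession, and 8 now carry another name. For example, Krtap8-2 is now Krtap19-5 and Krtap16-8 is now Krtap6-5. Placed by current name in the classes used for the human family, 18 members are high-sulphur, 17 are ultra-high-sulphur and 13 are high glycine-tyrosine, and 3 were left without a class.

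Promoter sequence from RefSeq (GRCm38.p6) could be matched for 46 members, in a window of 250 bases before to 50 bases after the start. The letters TATAAA, the core of the TATA box bound by the TATA-binding protein, were found on either strand in 37 of the 46 windows (80.4%), against 14.2% of 27025 genes. On the coding strand between bases -40 and -16 they were found in 27 members (58.7%), against 2.22% of all genes. The letters CTTTGAA, which match the core site of Lef/Tcf factors of Wnt signalling on either strand, were found in 9 members (19.6%) against 5.27% of genes. CTTTGAT was found in 3 members (6.52%) against 3.72%, and CTTTGTT in 6 (13%) against 5.79%. Direct repeats of GGTCA or of GTTCA with 6 bases between them, searched on both strands, were found in 0 of the 46 windows, against 0.0814% and 0.074% of genes. No direct repeat with another spacing was searched. These matches describe letters in a window and members of a subfamily share sequence, so the windows are not independent of each other.

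The 100 bases before the start are shown for 6 members that the results below turn on: the whole Krtap3 subfamily, whose values were nearly equal in both epidermis libraries, the most abundant high glycine-tyrosine and ultra-high-sulphur members, and Krtap13, which stood far above all others. All 6 lie on the minus strand, the sequences read 5′ to 3′ along the gene, and capitals mark TATAAA on the coding strand.
Krtap3-1 (chr11:99566631-99566730): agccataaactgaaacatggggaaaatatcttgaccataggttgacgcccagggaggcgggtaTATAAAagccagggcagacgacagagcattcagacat
Krtap3-2 (chr11:99556854-99556953): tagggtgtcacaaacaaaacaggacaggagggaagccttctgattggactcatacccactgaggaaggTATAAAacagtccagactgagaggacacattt
Krtap3-3 (chr11:99550864-99550963): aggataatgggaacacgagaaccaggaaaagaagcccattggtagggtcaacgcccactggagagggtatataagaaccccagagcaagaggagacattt
Krtap17-1 (chr11:99993995-99994094): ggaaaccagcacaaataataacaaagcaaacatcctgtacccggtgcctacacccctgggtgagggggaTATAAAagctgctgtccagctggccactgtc
Krtap8-1 (chr16:89487953-89488052): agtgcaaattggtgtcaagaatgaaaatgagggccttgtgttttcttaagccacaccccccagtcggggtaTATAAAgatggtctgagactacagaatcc
Krtap13 (chr16:88751629-88751728): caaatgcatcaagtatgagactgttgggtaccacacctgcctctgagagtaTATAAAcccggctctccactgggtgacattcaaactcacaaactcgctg
The first base of TATAAA stands at -37 in Krtap3-1, -32 in Krtap3-2, -31 in Krtap17-1, -29 in Krtap8-1 and -49 in Krtap13. Krtap3-3 has no exact match in this stretch.

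Of the 51 members, 29 reached 1 FPKM in at least 1 of the 6 columns and 11 reached 5 FPKM. The other 22 stayed under 1 FPKM everywhere, and 5 of those were listed at 0 in all 6 columns. Most members were thus low, and levels set across the 3 tables are a description only, because the tables were made separately. Near-identical copies limit some values. Of 43 members with an annotated transcript, 19 shared more than 10% of their 50-base stretches with other transcripts, and reads from such stretches can be split between copies. Krtap3-2 shared 28.9%, Krtap3-3 41.6%, Krtap9-1 64.7% and Krtap4-13 80.9%, while Krtap8-1, Krtap7-1, Krtap11-1, Krtap17-1 and Krtap4-16 shared 0%.

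**Figure D1:**
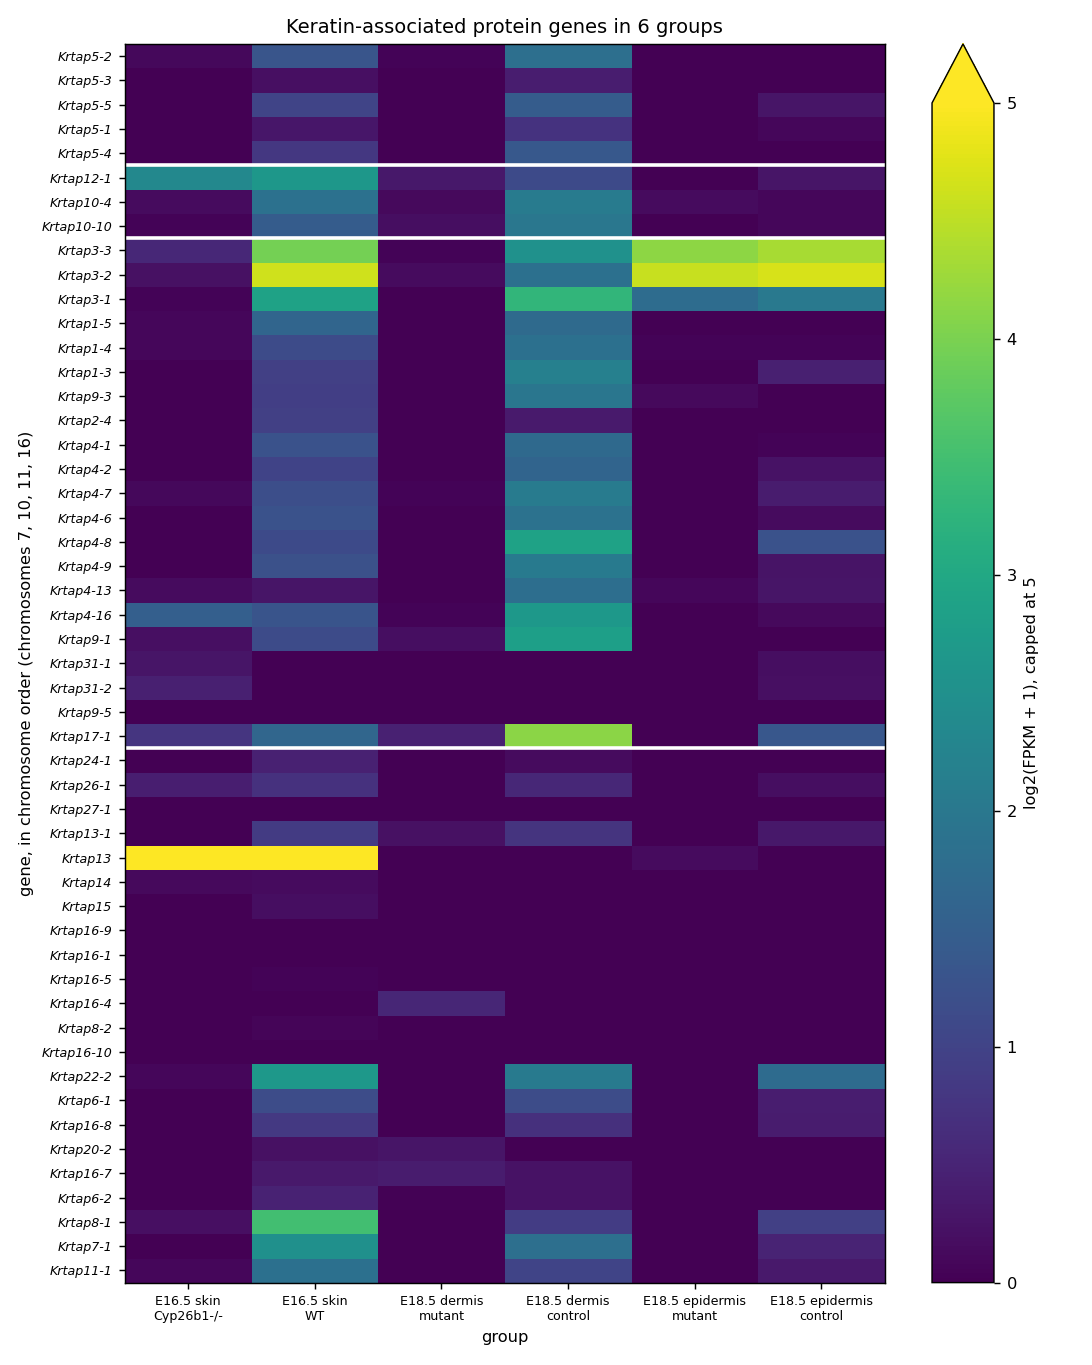
FPKM of the Krtap members in each of the 6 columns as colour on a log2(FPKM + 1) scale capped at 5, with members in chromosome order and each labelled mutant column left of its control. Krtap13 fills both E16.5 columns, and the 3 Krtap3 genes are the only members at 1 FPKM or more in labelled mutant epidermis.

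At E16.5 most Krtap genes other than Krtap13 were lower in skin labelled Cyp26b1-/- than in WT skin. The 50 members other than Krtap13 summed to 9.32 FPKM in skin labelled null and 104.86 FPKM in WT skin. Only 3 members reached 1 FPKM in skin labelled null, against 25 in WT skin, and 29 were listed at 0 in skin labelled null against 8 in WT skin. In whole skin, fewer cells of a type and less RNA per cell cannot be told apart. Because the median gene was 0.43 higher in skin labelled null on the log2(FPKM + 1) scale, calls were made relative to the median. The statistic in the authors' deposited table was recomputed after subtracting the median log2 fold, with a two-sided normal p. Calls used a Benjamini-Hochberg adjustment at 0.05 over all tested transcripts. Of 39 members with a tested transcript, 32 fell, 2 rose and 5 were not called. Among all 16303 gene symbols with a tested transcript, 10.2% were called lower and 8.16% higher. The authors' deposited calls at q < 0.05 gave the same 32 lower and 2 higher members, beside a background of 3.46% lower and 54.6% higher. Of the 32, 18 were listed at 0 in skin labelled null, and the 2 higher members were listed at 0 in WT skin. These members kept the authors' call, so for them the match was fixed in advance. At 1 FPKM in either group, 22 of 25 members were more than 2-fold lower relative to the median gene and 0 were 2-fold higher, against 2.85% lower and 1.67% higher of 14154 genes. Their median log2 difference was -1.66, but 22 of the 25 met that level through WT skin alone.

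The high-sulphur subfamily Krtap3, cortex proteins in human hair, held the highest values after Krtap13 and fell in all 3 members. Krtap3-2 had 0.17 FPKM in skin labelled null, against 24.07 FPKM in WT skin, a log2 fold of -7.66 relative to the median (SE 0.598 implied by the Cuffdiff statistic). Krtap3-3 had 0.48 FPKM in skin labelled null and 14.41 FPKM in WT skin (log2 fold -5.38, SE 0.533). Krtap3-1 had 0.03 FPKM in skin labelled null and 6.41 FPKM in WT skin (log2 fold -8.25, SE 2.58), with q = 0.0067 in the authors' deposited table. The subfamily summed to 0.68 FPKM in skin labelled null and 44.89 FPKM in WT skin, which is 42.8% of the WT sum without Krtap13. These SEs are those of the Cuffdiff model and do not measure a spread between embryos. Each q quoted here and below from the authors' deposited table belongs to the log2 fold before the median was subtracted.

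Other high-sulphur members behaved unevenly. Krtap10-4, of a subfamily found in the cuticle of human hair, fell to 0.1 FPKM in skin labelled null, against 2.64 FPKM in WT skin (log2 fold -5.16, SE 0.887). The GENCODE annotation lists Krtap10-4 as a pseudogene, and its share of sequence with other transcripts was not computed. Krtap10-10 fell to 0.04 FPKM in skin labelled null, against 1.76 FPKM in WT skin, and Krtap11-1 fell to 0.07 FPKM against 2.58 FPKM. The exceptions were Krtap13, Krtap12-1 and Krtap26-1, none of which was called. Krtap12-1 had 4.07 FPKM in skin labelled null and 5.28 FPKM in WT skin, a log2 fold of -0.85 relative to the median (SE 0.374). Its q was 0.1025 in the recomputed test, and q = 0.3998 in the authors' deposited table for a log2 fold of -0.37. Krtap26-1 had 0.34 FPKM in skin labelled null and 0.64 FPKM in WT skin, with q = 0.1705 in the authors' deposited table. Among the 15 tested high-sulphur members, 12 fell.

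All 7 tested high glycine-tyrosine members fell, and the class summed to 0.23 FPKM in skin labelled null and 23.19 FPKM in WT skin. Krtap8-1 had 0.16 FPKM in skin labelled null and 10.28 FPKM in WT skin (log2 fold -6.50, SE 1.16). Krtap22-2 had 0.07 FPKM in skin labelled null and 5.32 FPKM in WT skin (log2 fold -6.73, SE 2.45), with q = 0.0227 in the authors' deposited table. Krtap7-1 was listed at 0 in skin labelled null and at 4.66 FPKM in WT skin. This class thus went with the Krtap3 genes at this age, with no member at 1 FPKM in skin labelled null.

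Of 15 tested ultra-high-sulphur members, 13 fell, from low WT levels. Krtap17-1, a cuticle protein in human hair, had 0.7 FPKM in skin labelled null and 2.15 FPKM in WT skin (log2 fold -2.09, SE 0.53), with q = 0.0061 in the authors' deposited table. Krtap9-1 had 0.16 FPKM in skin labelled null and 1.22 FPKM in WT skin (log2 fold -3.38, SE 0.975), and Krtap4-8 was listed at 0 in skin labelled null and at 1.17 FPKM in WT skin. Krtap4-16 was not called, with 1.87 FPKM in skin labelled null and 1.45 FPKM in WT skin (log2 fold -0.11, SE 0.448), with q = 0.4935 in the authors' deposited table. As deposited, without subtracting the median, its log2 fold was 0.37, so its sign depends on the scaling. The 2 members that rose, Krtap31-1 and Krtap31-2, had 0.22 and 0.36 FPKM in skin labelled null and were listed at 0 in WT skin. Their calls are the authors' and were not centred. Relative to the median gene their log2(FPKM + 1) differences were -0.14 and 0.02, and they share 37.8% and 41.5% of their 50-base stretches with other transcripts.

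**Figure D2:**
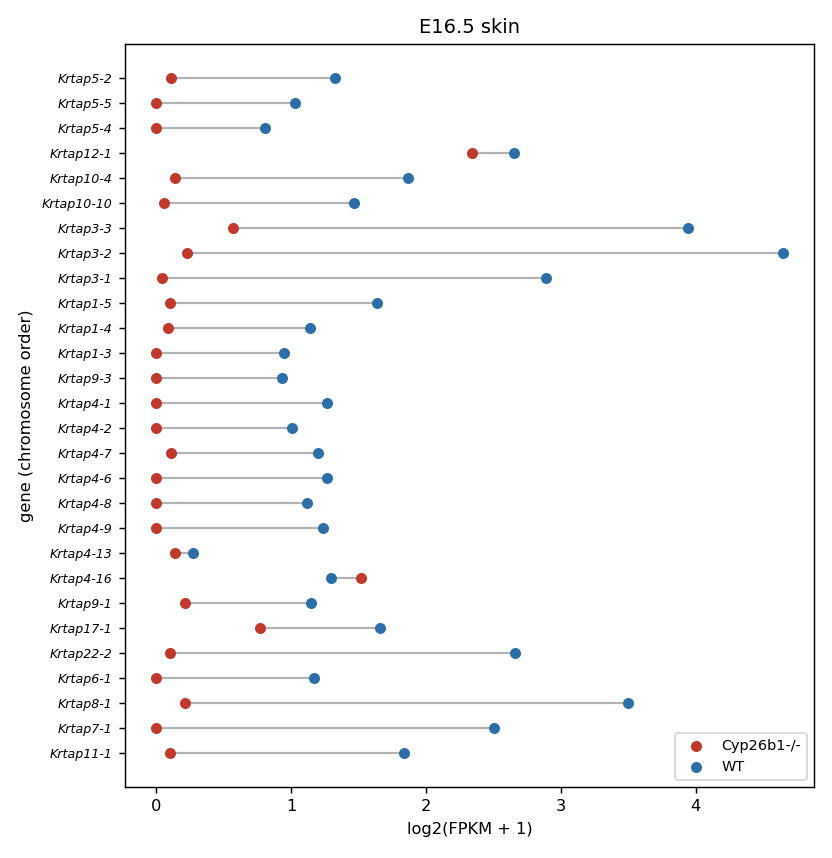
Level of each Krtap member with at least 1 FPKM in some column, without Krtap13, in E16.5 whole skin on a log2(FPKM + 1) scale, with skin labelled Cyp26b1-/- in red and WT skin in blue, each point a pooled column of 2 libraries. Only Krtap4-16 has its red point to the right of its blue point, and Krtap12-1 is the one member that stays above 4 FPKM in skin labelled null.

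Krtap13 differed from every other member in level. It had 2940.95 FPKM in skin labelled null and 2509.42 FPKM in WT skin, rank 34 and rank 17 of 21417 genes. The deposited log2 fold was 0.23 and its value relative to the median was -0.25 (SE 0.234), with q = 0.4079 in the authors' deposited table, so the sign depends on the scaling and the gene was not called either way. At E18.5 it was listed at 0 in labelled mutant and control dermis, at 0.11 FPKM in labelled mutant epidermis and at 0 in control epidermis. Its nearest member, Krtap13-1, lies on its side nearer the first member of the cluster and fell to 0 in skin labelled null, against 0.82 FPKM in WT skin. Krtap13 shares 22.1% of its 50-base stretches with 2310057N15Rik, a transcript in the same cluster. Without reads, whether its E16.5 values come from its own transcript was not tested, and neither was the part of read mapping or of the gene model in the gap between the tables.

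In E18.5 dermis no Krtap gene reached 1 FPKM in the library labelled En1cre;Cyp26b1f/-, whereas 27 did in the control library. With 1 library per group there is no replicate check and no test. The 51 members summed to 2.4 FPKM in labelled mutant dermis and 103.14 FPKM in control dermis, and the highest member in labelled mutant dermis had 0.46 FPKM. The value was lower in labelled mutant dermis for 36 of the 39 members above 0 in either library, and 24 members were listed at 0 in labelled mutant dermis but not in control dermis. Relative to the median gene, which was 0.12 higher in labelled mutant dermis on the log2(FPKM + 1) scale, 26 of the 27 members at 1 FPKM were more than 2-fold lower and 0 were more than 2-fold higher. All 27 met that level through the control library, so they could only be lower or similar. Among all 13398 genes at that level, 13.9% were 2-fold lower and 14% were 2-fold higher. The exception was Krtap12-1, with 0.25 FPKM in labelled mutant dermis and 1.19 FPKM in control dermis. It depends on the 1 added to each FPKM. With 0.5 or 0.1 added instead, its log2 difference was -1.305 or -2.02, and all 27 members were more than 2-fold lower.

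The order of levels in control dermis was not that of E16.5 WT skin. Ultra-high-sulphur members led it, with a class sum of 0.6 FPKM in labelled mutant dermis and 59.78 FPKM in control dermis. Krtap17-1 had 0.38 FPKM in labelled mutant dermis and 16.43 FPKM in control dermis. Krtap4-8 was listed at 0 in labelled mutant dermis and at 6.35 FPKM in control dermis. Krtap9-1 had 0.13 FPKM in labelled mutant dermis and 6.08 FPKM in control dermis, and Krtap4-16, uncalled at E16.5, had 0.03 FPKM in labelled mutant dermis and 5.32 FPKM in control dermis. All of the 8 Krtap4 members were more than 2-fold lower, with a sum of 0.06 FPKM in labelled mutant dermis and 27.49 FPKM in control dermis.

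High-sulphur members came next, with a class sum of 0.79 FPKM in labelled mutant dermis and 34.58 FPKM in control dermis. Krtap3-1 was listed at 0 in labelled mutant dermis and at 8.82 FPKM in control dermis, Krtap3-3 had 0.04 and 4.76 FPKM, and Krtap3-2 had 0.11 and 2.59 FPKM in the same order. Within this subfamily Krtap3-1 was highest in control dermis, whereas Krtap3-2 was highest in E16.5 WT skin. Krtap10-4 had 0.09 FPKM in labelled mutant dermis and 3.22 FPKM in control dermis, and Krtap1-3 was listed at 0 in labelled mutant dermis and at 3.55 FPKM in control dermis. The high glycine-tyrosine class was the lowest, with 1.01 FPKM in labelled mutant dermis and 8.78 FPKM in control dermis. Krtap22-2 was listed at 0 in labelled mutant dermis and at 3.15 FPKM in control dermis, and Krtap8-1 at 0 and at 0.86 FPKM. The 3 members with a higher value in labelled mutant dermis were Krtap16-4 (0.46 FPKM, listed at 0 in control dermis), Krtap20-2 (0.22 FPKM, listed at 0 in control dermis) and Krtap16-7 (0.31 FPKM against 0.19 FPKM). All are high glycine-tyrosine members by current name, named here after their values were seen.

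Of the 26 members more than 2-fold lower in dermis, 24 were also among the 32 that fell at E16.5, which is 92.3% of the dermis list and 75% of the E16.5 list. The other 2 were Krtap4-13 and Krtap4-16. The E16.5 and E18.5 comparisons share no library. Among all genes, 10.2% of those tested were called lower at E16.5. In dermis 13.9% of those at 1 FPKM were 2-fold lower, and the share in both lists was not computed. As 32 of 39 tested members fell at E16.5 and dermis members could only be lower or similar, a large overlap was likely beforehand.

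Epidermal markers moved with the Krtap genes in dermis. The basal and spinous keratinocyte list summed to 4787.24 FPKM in labelled mutant dermis and 15554.79 FPKM in control dermis, with 7 of 8 genes more than 2-fold lower. The basal keratin gene Krt5 had 1806.04 FPKM in labelled mutant dermis and 6264.94 FPKM in control dermis, more than the 2634.28 FPKM of control epidermis, so the library labelled control dermis held keratinocyte RNA. Skeletal muscle genes moved the other way, with a sum of 5468.81 FPKM in labelled mutant dermis and 1778.75 FPKM in control dermis and 6 of 8 genes more than 2-fold higher. The 5 fibroblast genes with a usable estimate summed to 1162.99 FPKM in labelled mutant dermis and 536.39 FPKM in control dermis. The part of these differences in tissue makeup in the Krtap values was not tested.

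In E18.5 epidermis the Krtap3 genes had nearly the same values in both libraries, while the few other detected members were lower in the library labelled En1cre;Cyp26b1f/-. Krtap3-2 had 23.01 FPKM in labelled mutant epidermis and 25.05 FPKM in control epidermis. Krtap3-3 had 16.85 FPKM in labelled mutant epidermis and 19.21 FPKM in control epidermis, and Krtap3-1 had 2.41 FPKM in labelled mutant epidermis and 3.05 FPKM in control epidermis. The median gene was 0.18 lower in labelled mutant epidermis, and relative to it the log2(FPKM + 1) differences of these 3 genes were 0.06, -0.0008 and -0.07, against 1 library per group and no replicate error. The Krtap3 genes made up 99.3% of the summed Krtap FPKM in labelled mutant epidermis and 82.1% in control epidermis, Krtap13 left out.

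The 47 members other than Krtap13 and the Krtap3 genes summed to 0.3 FPKM in labelled mutant epidermis and 10.32 FPKM in control epidermis. Krtap22-2 was listed at 0 in labelled mutant epidermis and at 2.35 FPKM in control epidermis, Krtap17-1 at 0 and at 1.55 FPKM, and Krtap4-8 at 0 and at 1.38 FPKM. These were the 3 members of 6 at 1 FPKM that were more than 2-fold lower relative to the median gene, and 0 were 2-fold higher. The same 3 met that level through the control library alone, so they could only be lower or similar. Over 11362 genes at that level, 4.86% were 2-fold lower and 3.49% were 2-fold higher. Past 3-fold the count was 0 members when the limit was raised. Krtap22-2, Krtap17-1 and Krtap4-8 were already listed at 0 in labelled mutant epidermis. With 1 added to each FPKM, they did not pass 3-fold relative to the median gene. Before the median was subtracted, the log2 difference of Krtap22-2 was -1.74, which is past 3-fold. With 0.1 added instead, the log2 differences of Krtap22-2, Krtap17-1 and Krtap4-8 relative to the median gene were -4.41, -3.84 and -3.68. In all, 22 members were listed at 0 in labelled mutant epidermis but not in control epidermis, and 3 members (Krtap13, Krtap10-4 and Krtap9-3) had a higher value in labelled mutant epidermis, none above 0.11 FPKM. Basal and spinous keratinocyte genes with a usable estimate summed to 7378.01 FPKM in labelled mutant epidermis and 12691.54 FPKM in control epidermis, and fibroblast genes to 62.48 and 329.82 FPKM, all 6 more than 2-fold lower. Their part in the Krtap values was not tested.

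**Figure D3:**
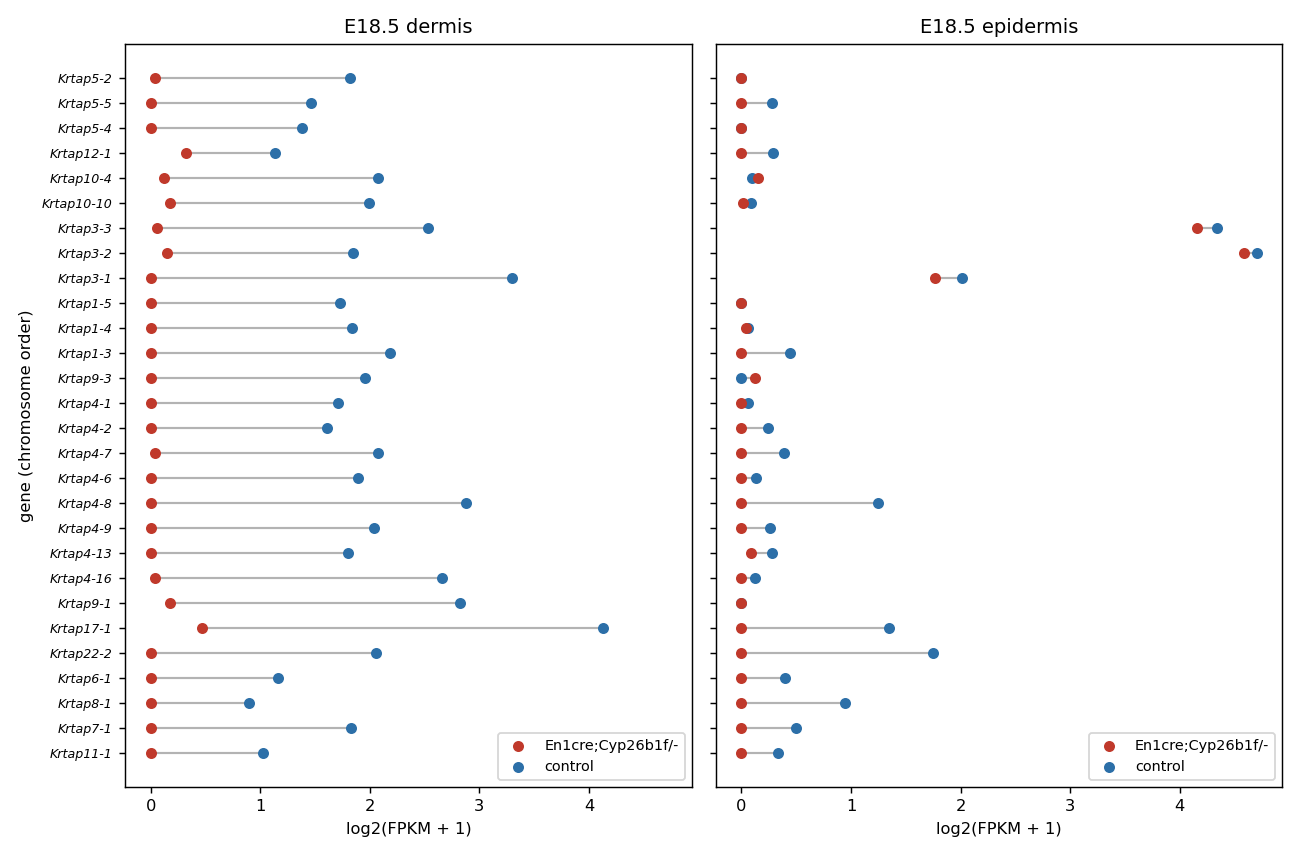
Level of the same Krtap members in E18.5 dermis and E18.5 epidermis on a log2(FPKM + 1) scale, with the library labelled En1cre;Cyp26b1f/- in red and the control library in blue, 1 library per point. In dermis every red point lies near 0, and in epidermis the red and blue points of Krtap3-1, Krtap3-2 and Krtap3-3 lie close together.

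The Krtap3 genes differed between the 3 comparisons. They were at 0.48 FPKM or less in skin labelled null at E16.5 and at 0.11 FPKM or less in labelled mutant dermis, but at 2.41 FPKM or more in labelled mutant epidermis. Their order in control epidermis, Krtap3-2 above Krtap3-3 above Krtap3-1, was that of E16.5 WT skin and not that of control dermis. Krtap3-2 and Krtap3-3 share sequence, as given above, whereas Krtap3-1 shares 8.83%. No test of the difference between these comparisons was possible with 1 library per group at E18.5.

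By position, the chromosome 11 cluster had the highest sum besides Krtap13 in all 3 control columns. It summed to 4.3 FPKM in skin labelled null and 63.63 FPKM in WT skin, to 0.72 FPKM in labelled mutant dermis and 77.79 FPKM in control dermis, and to 42.45 FPKM in labelled mutant epidermis and 52.06 FPKM in control epidermis. At E16.5, 16 of its 20 tested members fell. In the chromosome 7 cluster, which holds the ultra-high-sulphur Krtap5 genes, all 4 tested members fell at E16.5, and the sums were 0.08 FPKM in skin labelled null and 3.7 FPKM in WT skin, and 0.03 FPKM in labelled mutant dermis and 6.89 FPKM in control dermis. In the chromosome 10 cluster of Krtap10 and Krtap12 genes 2 of 3 fell, and on chromosome 16 10 of 12 tested members fell. The chromosome 16 cluster was split by level, as seen after its values were known. Without Krtap13, the 12 members in its first 351.6 kb stayed at or below 0.82 FPKM in every column. The 9 members from 399.7 to 959.5 kb reached 10.28 FPKM and summed to 0.3 FPKM in skin labelled null and 25.68 FPKM in WT skin.

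**Figure D4:**
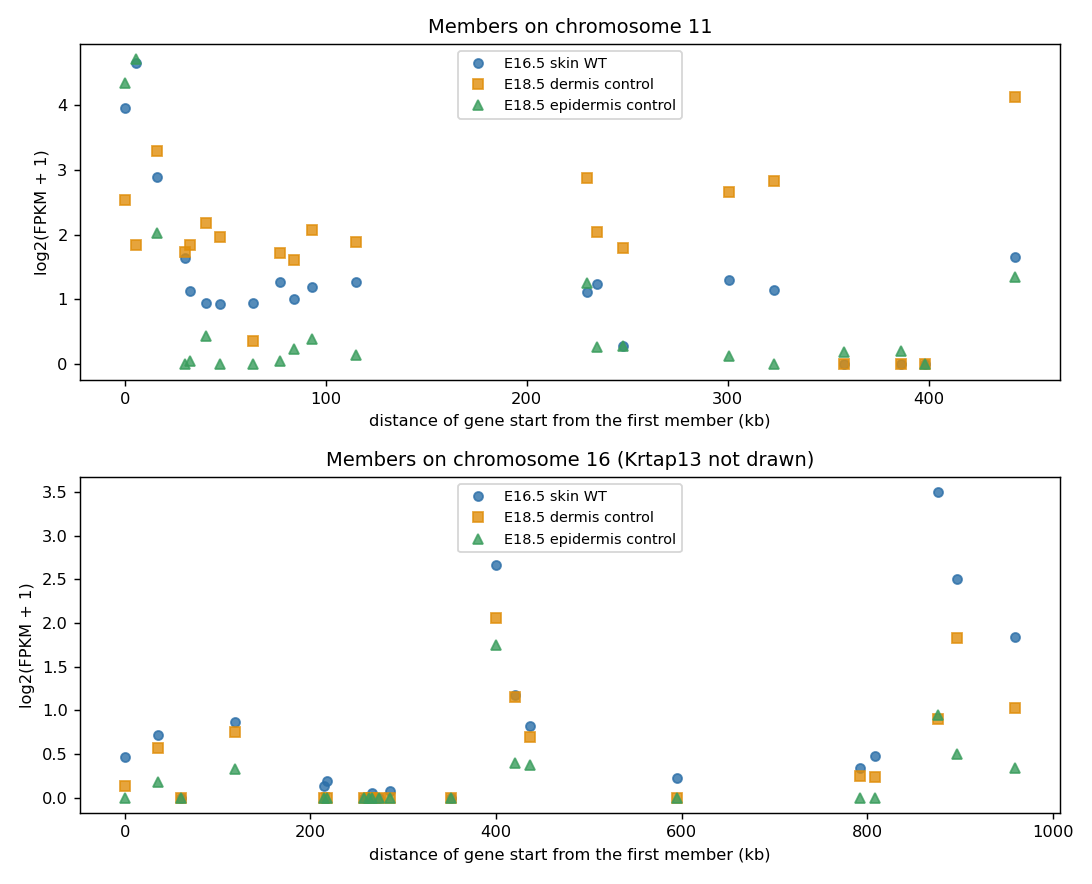
Level of each Krtap member of the chromosome 11 and chromosome 16 clusters in the 3 control columns, as log2(FPKM + 1), against the distance of the gene start from the first member in kb. Krtap3 genes lie at the left end of the chromosome 11 cluster with the highest epidermal values, and on chromosome 16 the values above 1 FPKM lie from 399.7 kb on, with Krtap13 not drawn.

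Other genes of the hair follicle were read in the same tables. Of 14 tested hair shaft keratin genes, partners of the Krtap proteins in the shaft, 12 fell and 0 rose at E16.5, and the list summed to 7.24 FPKM in skin labelled null and 33.48 FPKM in WT skin. Krt35, a keratin of the matrix and cortex, fell to 0.43 FPKM in skin labelled null, against 4.8 FPKM in WT skin, and had 2.48 FPKM in labelled mutant dermis and 171.13 FPKM in control dermis. Krt85, its type II partner, fell to 0.05 FPKM in skin labelled null, against 4.14 FPKM in WT skin, and had 2.22 FPKM in labelled mutant dermis and 56.17 FPKM in control dermis. In dermis all 12 shaft keratin genes at 1 FPKM were more than 2-fold lower, and in epidermis 3 of 9 were. Krt32, a cuticle keratin, had 5.78 FPKM in labelled mutant epidermis and 11.84 FPKM in control epidermis. Krt34, a cortex keratin named after its values were seen, ran the other way, with 2.23 FPKM in labelled mutant epidermis and 1.47 FPKM in control epidermis.

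Of 8 tested inner root sheath genes, which form the sleeve around the shaft, 7 fell and 1 rose at E16.5. Krt71 fell to 0.28 FPKM in skin labelled null, against 47.87 FPKM in WT skin, and Krt25 fell to 0.92 FPKM against 35.95 FPKM. The gene that rose was Tchh, which encodes trichohyalin of the sheath and medulla, with 57.99 FPKM in skin labelled null and 22.54 FPKM in WT skin. In dermis all 8 sheath genes were more than 2-fold lower, Krt71 with 8.37 FPKM in labelled mutant dermis and 503.88 FPKM in control dermis. In epidermis 5 of 6 were, Krt71 with 1.11 FPKM in labelled mutant epidermis and 45.32 FPKM in control epidermis.

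Of 18 tested regulators of the matrix and shaft, 7 fell and 2 rose at E16.5, and their median log2 difference was -0.26, against 0 for the median gene. The authors' deposited calls, not centred, were 3 lower and 8 higher, so the split of this list depends on the scaling. The 2 that rose, named after their values were seen, were Sp6 and Vdr. Sp6 had 141.01 FPKM in skin labelled null and 60.03 FPKM in WT skin, and Vdr had 16.37 and 7.08 FPKM. Hoxc13 and Foxn1, named below, are not among the most abundant members of this list. Hoxc13, a homeobox factor that acts on hair keratin and Krtap genes, fell to 1 FPKM in skin labelled null, against 2.77 FPKM in WT skin, and had 3.97 FPKM in labelled mutant dermis and 26.26 FPKM in control dermis. In labelled mutant epidermis it had 0.35 FPKM, against 2.08 FPKM in control epidermis. Foxn1, a forkhead factor of shaft differentiation, had 12.13 FPKM in labelled mutant epidermis and 14.45 FPKM in control epidermis, and 1.52 FPKM in labelled mutant dermis and 12.65 FPKM in control dermis. In dermis 12 of the 18 regulators were more than 2-fold lower, and in epidermis 6 were lower and 1 was higher. The higher one was Sp6, with 113.43 FPKM in labelled mutant epidermis and 56.62 FPKM in control epidermis. These lists were chosen with earlier results of these data known, and their counts are descriptions.

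Markers of other cell types were read at E16.5 as well. Of 6 tested basal and spinous keratinocyte genes 3 fell and 0 rose, with a median log2 difference of -0.51, and Krt5 had 1227.78 FPKM in skin labelled null and 1417.41 FPKM in WT skin. Of 5 tested fibroblast genes 2 fell, with a median of -0.17. The 2 fibroblast genes that fell relative to the median had higher FPKM in skin labelled null than in WT skin. In the authors' deposited calls, not centred, 2 keratinocyte genes were lower and 2 higher. For fibroblast genes they were 0 lower and 2 higher, so these splits depend on the scaling. Lens genes, which belong to the eye, rose in 14 of 15 tested cases and summed to 2944 FPKM in skin labelled null and 68.59 FPKM in WT skin, so the pooled libraries labelled null held lens RNA. Its part in the Krtap values was not tested.

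**Figure D5:**
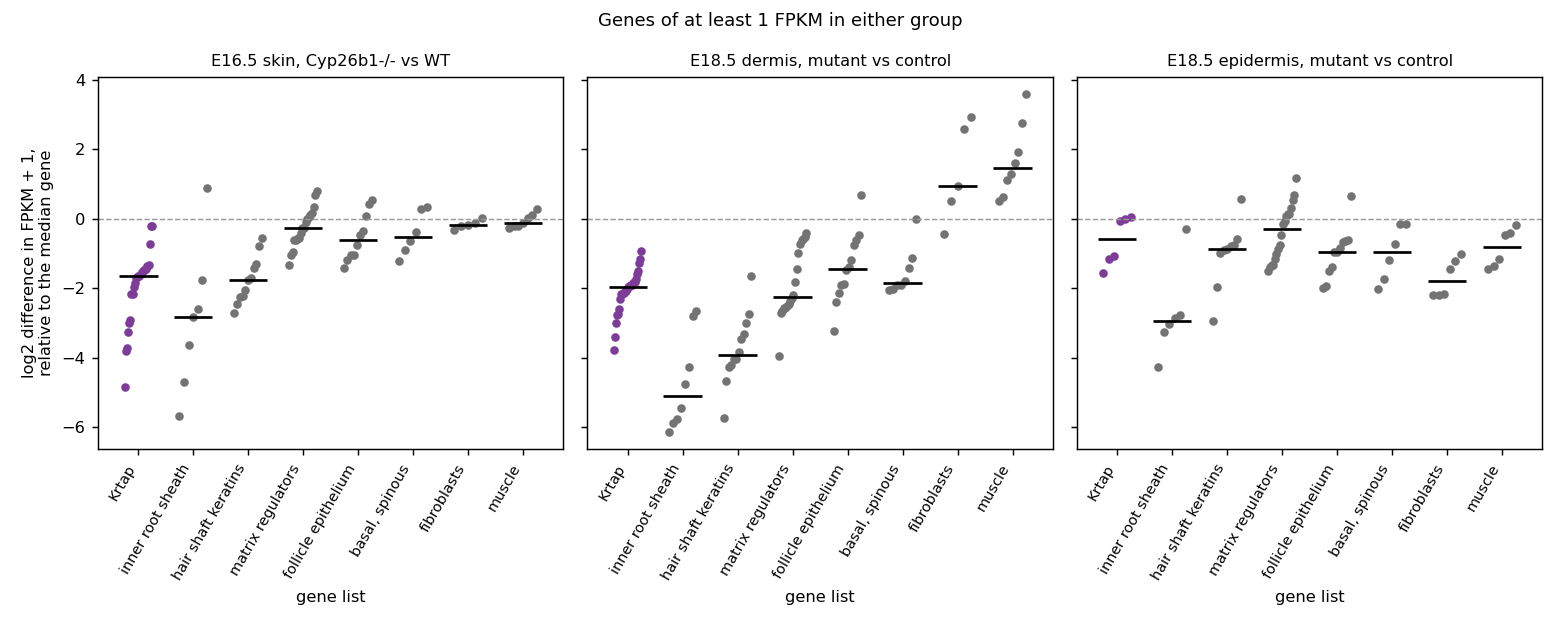
Log2 of (labelled mutant FPKM + 1)/(control FPKM + 1) relative to the median gene, of the Krtap members (purple) and of 7 of the other gene lists (grey) in E16.5 skin, E18.5 dermis and E18.5 epidermis, with a point for each gene of at least 1 FPKM in either group and a bar for the list's median. The Krtap median is -1.66 in E16.5 skin (25 members), -1.96 in dermis (27 members) and -0.57 in epidermis (6 members; -0.055 over all 51 with no level filter), and the inner root sheath list has -2.83, -5.11 and -2.94.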

How the data were processed

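The labels describe Trizol RNA, Illumina TruSeq libraries and 8 libraries. The submitters' processing notes name build mm9 and, with no settings, Cuffdiff 1.3.0, Cufflinks, TopHat 1.3.2 and Bowtie 0.12.7.0. How strand was handled and which gene model was used is not stated there. Per the file headers, each of 3 tables made by the authors holds, per transcript, the FPKM of control and mutant with a p-value and q-value, beside a log2 fold and the statistic behind them. FPKM values are deposited to 2 decimals and normalised for length and library size. The log2 fold (mutant over control) and the test statistic, of opposite sign, are treated as scores deposited by the authors.

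FPKM were summed per symbol. Differences are log2((mutant FPKM + 1)/(control FPKM + 1)) relative to the median gene with at least 1 FPKM in either group, a scale that understates changes of low genes. For E16.5 the deposited statistic was recomputed after subtracting the median deposited log2 fold of tested transcripts, with a two-sided normal p, Benjamini-Hochberg adjustment over all tested transcripts and a threshold of 0.05; transcripts at 0 in 1 group kept the authors' call. The SE is fold divided by statistic. The recomputation was tested on simulated data. Nothing in the sources says whether the E16.5 libraries of a group came from separate embryos or litters, so p-values measure only the model's error, which may be technical. No count test was run, since no counts are given. E18.5 has no test, with 2-fold as the limit. Genes with a failed estimate were left out of list values (Krt1, Krt10 and collagens in some tables). Locus starts were raised by 1.

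The naming rule was that members at 1 FPKM in any column could be named, with full values from 5 FPKM. Outside it, and after their values were seen, Krtap13-1, Krtap16-4, Krtap16-7, Krtap20-2, Krtap26-1, Krtap31-1 and Krtap31-2 were named, and values were given for Krtap1-3, Krtap7-1, Krtap10-4, Krtap10-10 and Krtap11-1. The members and gene lists were chosen with earlier results of these data known, and the protein classes were assigned after the values had been seen. Shared 50-base stretches came from GENCODE vM1 transcripts and promoters from RefSeq GRCm38.p6. Python 3.11.15, pandas 2.3.3, numpy 2.4.6, scipy 1.17.1 and matplotlib 3.10.9 were used. Alternatives covered the centring, pseudocount, level filter, threshold, fold limit, transcript summing and shared sequence.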

Additional observations from a re-analysis of the deposited data

How the results depend on the processing

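At E16.5, 32 members were lower under the authors' deposited calls and under both other medians, and 29 at a threshold of 0.01, where 1 was higher. Members listed at 0 in 1 group, among them 18 of the 32, kept the authors' call under every median. For those members this stability was fixed in advance. An alternative chosen after seeing the data kept the 24 members with an annotated transcript that shared at most 10% of its 50-base stretches. Members without an annotated transcript, such as Krtap22-2, were left out as well. Of the members kept, 14 of 16 tested were lower and 0 higher in E16.5 skin. At 1 FPKM, 11 of 11 were 2-fold lower in dermis and 1 of 2 in epidermis. Counting at 3-fold gave 23 members lower in dermis and 0 in epidermis. In epidermis the members past 2-fold were listed at 0 in the labelled mutant library. With 1 added to each FPKM, they did not pass 3-fold relative to the median gene. Without centring, Krtap22-2 did. The pseudocount sets the size of differences among such low values. With 0.1 the members' median was -4.20 in E16.5 skin, -4.83 in dermis and -1.90 in epidermis, and with 0.5 it was -2.34 at E16.5 and -2.76 in dermis. With no level filter, and the median gene then taken over all genes, the median of all 51 members was -1.12 in E16.5 skin, -1.04 in dermis and -0.055 in epidermis. Counted at 0.1 FPKM, detected members numbered 13 in skin labelled null and 41 in WT skin. They numbered 9 in labelled mutant and 37 in control dermis, and 5 in labelled mutant and 23 in control epidermis. With Krtap13 included, also chosen after seeing the data, the E16.5 sums were 2950.27 FPKM in skin labelled null and 2614.28 FPKM in WT skin. Of the values of single named members, 8 stayed close and 25 moved with a pseudocount of 0.1, and 17 stayed close and 16 moved with 0.5. Without centring all 33 stayed close, which was fixed in advance, since it shifts all values of a comparison by 1 small amount. Under these alternatives 0 values changed sign in a called direction. For single named members this too was fixed in advance, since neither a smaller pseudocount nor dropping the centring could reverse a difference past 2-fold.

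No paired analysis was possible because the E16.5 columns pool their libraries and E18.5 has 1 library per group; leaving out a replicate was not possible for the same reason. The planned protein composition and identity were not run, since no protein sequences were used here. Depth is unknown, so a member listed at 0 is below an unknown limit. Strand handling is not stated. Krtap14 and Krtap15 overlap on opposite strands in the GENCODE annotation, though not in the deposited loci. Whether reads of these genes were told apart is unknown.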

Other observations

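2 transcripts next to Krtap13 on chromosome 16 (mm9) had a like pattern across the columns, seen after the values were known. 2310034C09Rik (88759092 to 88760034) had 3431.15 FPKM in skin labelled null and 2404.28 FPKM in WT skin, with q = 0.0662 in the authors' deposited table. 2310057N15Rik (88773426 to 88774451) had 370.1 FPKM in skin labelled null and 543.58 FPKM in WT skin, with q = 0.0007 in the authors' deposited table. At E18.5 both were listed at or below 0.03 FPKM in all 4 columns. Krtap13 itself lies at 88750990 to 88751873, and 2310057N15Rik shares 18.9% of its 50-base stretches with it. Only 5 genes had at least 500 FPKM in both E16.5 columns and under 1 FPKM in all 4 E18.5 columns: Krtap13, 2310034C09Rik and the small nucleolar RNA genes Snord42b, Snord4a and Snord69.

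Other lists read beside the Krtap genes gave these counts. Of 10 tested genes for other shaft and sheath proteins, 5 fell and 2 rose at E16.5, with 3 of 7 more than 2-fold lower in dermis and 2 of 7 in epidermis. Of 10 tested follicle epithelium genes, 6 fell and 2 rose at E16.5, with 8 of 12 more than 2-fold lower in dermis and 4 of 11 in epidermis. Of 4 companion layer and wound keratin genes, 3 fell in E16.5 skin, and all 4 were more than 2-fold lower in dermis and in epidermis. Of 6 tested melanocyte genes 1 fell, of 7 tested skeletal muscle genes 0 fell and 0 rose, and of 8 tested erythroid genes 2 rose at E16.5. These E16.5 counts are relative to the median. In the authors' deposited calls, not centred, 3 shaft and sheath, 3 follicle epithelium, 2 melanocyte, 3 muscle and 7 erythroid genes were higher. Lower ones numbered 5, 4, 1, 0 and 0 in that order.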
